A study of Mus musculus with 12 samples.

Results

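The genes described here are those of 4 protein families that guide axons, blood vessels and migrating cells: semaphorins, plexins, ephrins and Eph receptors. They were taken from the count table by gene symbol among the protein-coding genes, and a mean of at least 1 count per 1000000 counts in a library (CPM) was required. Of 51 such genes in the table, 31 reached that mean: 13 of 20 semaphorins, 7 of 9 plexins, 4 of 14 Eph receptors and 7 of 8 ephrins. The whole table held 54447 features, and 11133 of its 21969 protein-coding genes had a mean of at least 1 CPM. The members just inside the threshold were Sema3c (1.09 CPM) and Efnb3 (1.39 CPM), and those just outside it were Epha4 (0.697 CPM) and Epha1 (0.564 CPM).

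RNA sequencing was done on mouse embryonic fibroblasts, described in the study's methods as NIH3T3 cells infected with a lentiviral Tet-One construct and selected with puromycin. All cells carried a doxycycline (dox)-inducible N-VEGF, a fragment from the N-terminus of an extended VEGF protein, either as N-VEGF or, with a nuclear localization sequence in front, as NLS-N-VEGF. The 12 libraries formed 4 groups of 3: NLS-N-VEGF no dox, NLS-N-VEGF dox, N-VEGF no dox and N-VEGF dox. The labels gave neither the dose of dox nor its duration, and the study describes collection within a day of adding it. Cells with an empty construct are not among the 4 groups, so dox itself and the induced protein cannot be told apart. In every group 2 libraries, numbered 1 and 2, shared a suffix in their labels, here suffix a, and another library numbered 2 had a second one, here suffix b. The suffixes look like dates, but what they date was not given in the sources used here. The labels do not say that the libraries of a group came from separate cultures, so the p-values measure the spread between these libraries, which may be technical.

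Semaphorins are secreted or membrane-bound ligands whose main receptors are the plexins. The plexins carry a cytoplasmic domain that inactivates small GTPases of the R-Ras and Rap type, so that integrin adhesion weakens and the actin cytoskeleton collapses. Class 3 semaphorins are secreted and mostly bind a complex of a plexin with a neuropilin, and the neuropilins are also co-receptors of VEGF. Ephrins are ligands held at the membrane, by a lipid anchor in the A class and by a transmembrane segment in the B class, and they bind the Eph receptor tyrosine kinases on neighbouring cells. In fibroblasts these families take part in contact repulsion, spreading and migration.

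Total counts lay between 13549331 and 18982127 per library, and 3 counts, taken as the smallest level that the depth can show, came to 0.158 to 0.221 CPM. This floor covers counting error only. The row of the construct held 5 to 12 counts in the libraries without dox and 35 to 268 in those with dox, which follows the labels. With dox it was at 10.5 and 17.96 CPM in the suffix b libraries and at 2.53 to 7.99 CPM in the suffix a libraries. Its counts with dox were 48 and 35 (suffix a) and 173 (suffix b) in NLS-N-VEGF cells. In N-VEGF cells they were higher under each suffix, at 121 and 149 (suffix a) and 268 (suffix b). Comparisons of the populations with dox, and of their dox effects, thus hold unlike levels of the construct, whose part in them was not tested. The 4 libraries with suffix b stood apart from the other 8: with group in the model, 45.6% of the 13608 genes tested were called between the suffixes. Fibroblast markers (10 of 10, Col1a1 and Vim among them) had means of at least 80.6 CPM. Of 5 neuronal markers, Snap25 had a mean of 2.62 CPM and the other 4 at most 0.128 CPM (Rbfox3 0.0100). Of 6 endothelial markers, Cdh5 had a mean of 2.48 CPM and the other 5 at most 0.626 CPM (the VEGF receptor Kdr 0.0111).

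Levels of different genes were compared per kb of exons, as CPM on TMM-scaled library sizes (normalised CPM; TMM is the trimmed mean of M-values) divided by the length of the merged exons. Among the members, semaphorins and ephrins ran from high levels down to the threshold, while every plexin and Eph receptor had a mean of at least 14.4 CPM. Under 1 CPM, and so outside the members, lay 10 Eph receptors and 2 plexins, beside 7 semaphorins and 1 ephrin. Plxnb2, a receptor of class 4 semaphorins, ranked first with 41.8 ± 2.82 normalised CPM per kb (SD, n = 12). It was followed by Epha2 with 25.8 ± 3.77, Sema7a with 23.8 ± 3.74 and Efna1 with 15.2 ± 2.83 normalised CPM per kb. Epha2 and Sema7a changed places between the suffixes, with 23.9 and 25.0 in suffix a and 29.6 and 21.4 in suffix b. Efnb2, Plxna1 and Ephb4 lay next at 11.5, 11.4 and 10.8, and their ranges over the libraries overlapped. The lowest level was that of Sema3c, a secreted class 3 semaphorin, with 0.152 ± 0.0604 normalised CPM per kb.

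**Figure D1:**
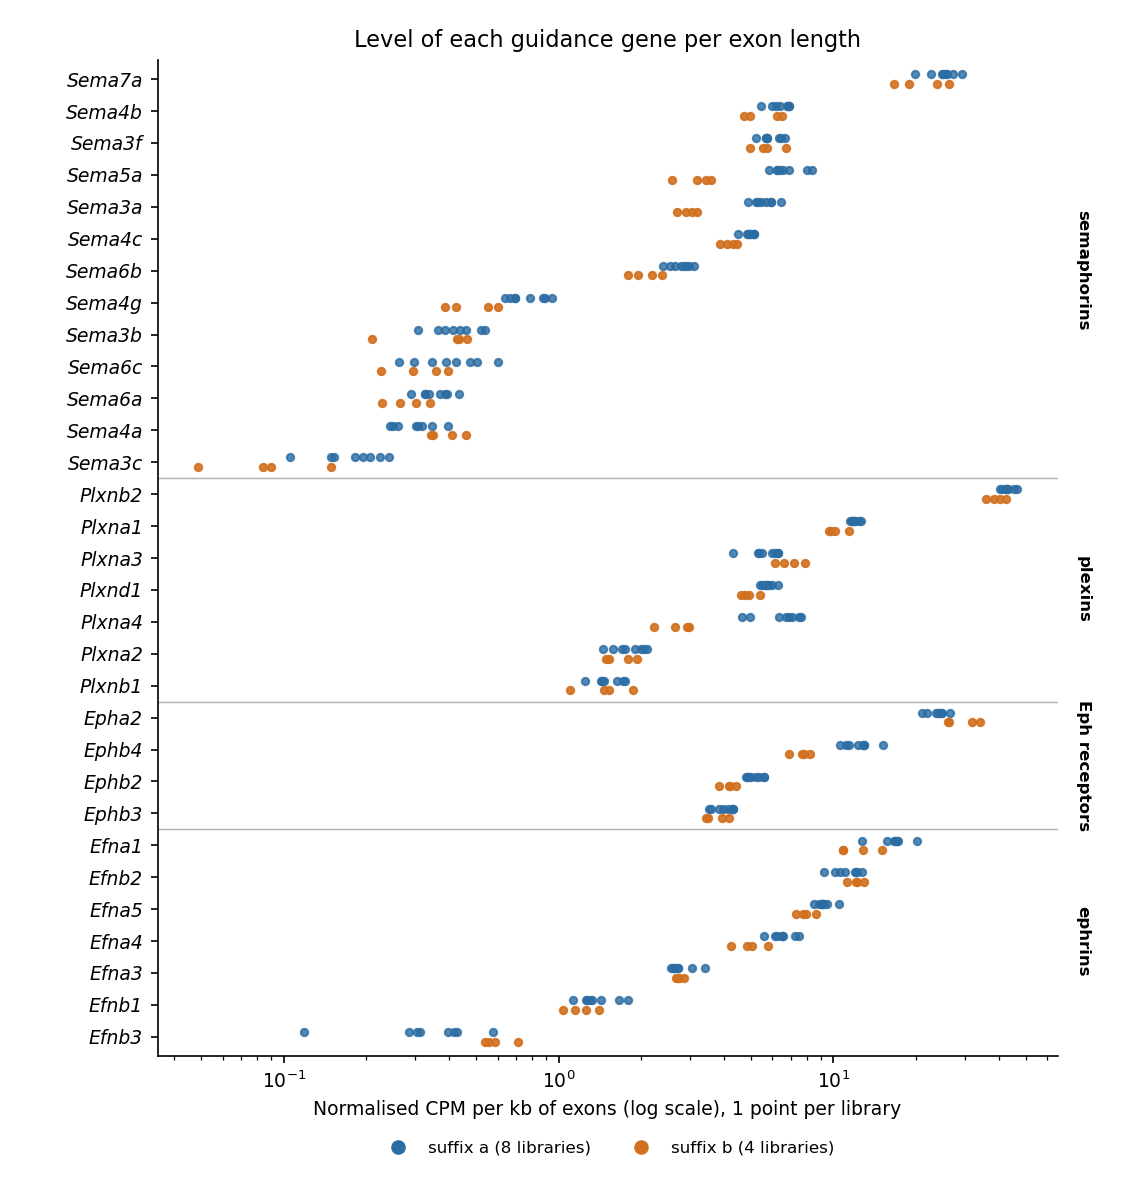
Normalised CPM per kb of exons (log axis) of the 31 guidance genes in the 12 libraries, grouped by family; each point is 1 library, blue for suffix a and orange for suffix b. Plxnb2 lies highest, between 35.9 and 46.4, and the orange points of Plxna4, Sema5a and Sema3a lie left of all blue points of the same gene.

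Sema7a (chr9:57940112-57962865), a lipid-anchored semaphorin that acts on integrins and plexin C1, was the semaphorin at the highest level. In the suffix a libraries its normalised CPM were 85.3 and 84.5 (NLS-N-VEGF no dox), 96.8 and 89.8 (NLS-N-VEGF dox), 74.5 and 65.1 (N-VEGF no dox) and 82.7 and 81.9 (N-VEGF dox). In the suffix b libraries, in the same order of groups, they were 78.4, 86.8, 62.1 and 54.8. The N-VEGF cells held the lowest value under each suffix, without dox under suffix a and with dox under suffix b. Sema4b (chr7:80186841-80226527), a transmembrane semaphorin, was second per kb over the 12 libraries (6.15). In suffix a alone Sema5a lay above it (6.82 against 6.42), and in suffix b alone Sema3f did (5.75 against 5.61). Sema4b was at 36.2 and 34.8 (NLS-N-VEGF no dox), 38.5 and 38.2 (NLS-N-VEGF dox), 30.7 and 33.7 (N-VEGF no dox) and 39.0 and 38.8 (N-VEGF dox) in the suffix a libraries. It was at 26.6, 35.2, 28.1 and 36.8 in the suffix b libraries, and in each of the 6 pairs of libraries with the same label the dox library was higher.

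Among the receptors of semaphorins, Plxnb2 (chr15:89155549-89180788) was at 328 and 328 (NLS-N-VEGF no dox), 318 and 312 (NLS-N-VEGF dox), 358 and 334 (N-VEGF no dox) and 349 and 330.3 (N-VEGF dox) normalised CPM in the suffix a libraries. In the suffix b libraries it was at 297, 326, 277 and 310.3. These values spread by less than 1.5-fold over all 12 libraries, and the suffixes overlapped. Plxna1 (chr6:89316314-89362620), a partner of the neuropilins, was second among the plexins per kb. It was at 106 and 107 (NLS-N-VEGF no dox), 106 and 109 (NLS-N-VEGF dox), 114 and 112 (N-VEGF no dox) and 109 and 104 (N-VEGF dox) in the suffix a libraries and at 92.0, 103, 87.2 and 89.1 in the suffix b libraries. All 4 of the latter lay below all 8 of the former. Of its exon bases 10.7% lie opposite another gene, as do 14.1% for Efna3 and 10.5% for Efna4, and the strand setting of the counting was not given in the sources used here, so reads of the partners cannot be told apart.

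Epha2 (chr4:141301240-141329384), an Eph receptor with A-class ephrins as ligands, was the Eph receptor at the highest level. Its normalised CPM in the suffix a libraries were 112 and 111 (NLS-N-VEGF no dox), 116 and 124 (NLS-N-VEGF dox), 102 and 98.1 (N-VEGF no dox) and 114 and 115 (N-VEGF dox). In the suffix b libraries they were 122, 149, 123 and 159. The dox library was the higher one in 6 of 6 pairs. Ephb4 (chr5:137350109-137378669), the receptor of ephrin-B2, was second. It was at 59.9 and 57.1 (NLS-N-VEGF no dox), 51.7 and 49.1 (NLS-N-VEGF dox), 70.3 and 59.8 (N-VEGF no dox) and 59.4 and 52.9 (N-VEGF dox) in the suffix a libraries and at 36.2, 35.6, 32.1 and 38.2 in the suffix b libraries, where all values were lower than in any suffix a library.

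Efna1 (chr3:89271733-89281142), a ligand of Epha2 that lies beside Efna3 and Efna4 on chromosome 3, led the ephrins per kb. It was at 31.0 and 30.7 (NLS-N-VEGF no dox), 28.7 and 23.3 (NLS-N-VEGF dox), 36.7 and 31.1 (N-VEGF no dox) and 31.4 and 30.4 (N-VEGF dox) in the suffix a libraries and at 23.5, 19.8, 19.9 and 27.4 in the suffix b libraries, and the suffixes overlapped only through NLS-N-VEGF dox 2a, which lay below 2 of the suffix b libraries. Efnb2 (chr8:8617434-8661242), the ligand of Ephb4, was second. It was at 87.0 and 83.1 (NLS-N-VEGF no dox), 83.4 and 81.8 (NLS-N-VEGF dox), 63.2 and 69.3 (N-VEGF no dox) and 75.7 and 72.5 (N-VEGF dox) in the suffix a libraries and at 82.8, 83.3, 88.5 and 76.8 in the suffix b libraries. Without dox its suffix a libraries were lower in N-VEGF than in NLS-N-VEGF cells, and the suffix b library was not.

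The first question of the design was whether dox changed these genes in NLS-N-VEGF cells and in N-VEGF cells. In the model without a block, 0 of 31 members were called in either population at an adjusted p under 0.05 (edgeR quasi-likelihood test, Benjamini-Hochberg over all genes tested). Few genes were called at all: 0.0220% of genes in NLS-N-VEGF cells and 0.0367% in N-VEGF cells. At an unadjusted p under 0.05, 1 member (Plxna2) was found in NLS-N-VEGF cells, where 2.34% of genes had such a p, and 2 members (Plxna2 and Sema4b) in N-VEGF cells, where 1.48% had. DESeq2 also called 0 members in each. With the label number and suffix as a block, 0 members were called in either population (0.125% and 0.110% of genes), and more had an unadjusted p under 0.05. There were 8 in NLS-N-VEGF cells (Epha2, Efna1, Efna5, Plxna2, Plxna4, Sema3c, Sema4b and Sema5a), where 7.27% of genes had such a p, and 4 in N-VEGF cells (Epha2, Plxna2, Plxnb1 and Sema4b), where 5.40% had. The median log2 fold change of the members was 0.0238 in NLS-N-VEGF cells and -0.0512 in N-VEGF cells, against 0.0002 and 0.0022 over all genes tested. The SE of single members ran from 0.0978 to 0.509 in NLS-N-VEGF cells, so small changes of the low genes could not be detected with 3 libraries per group.

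**Figure D2:**
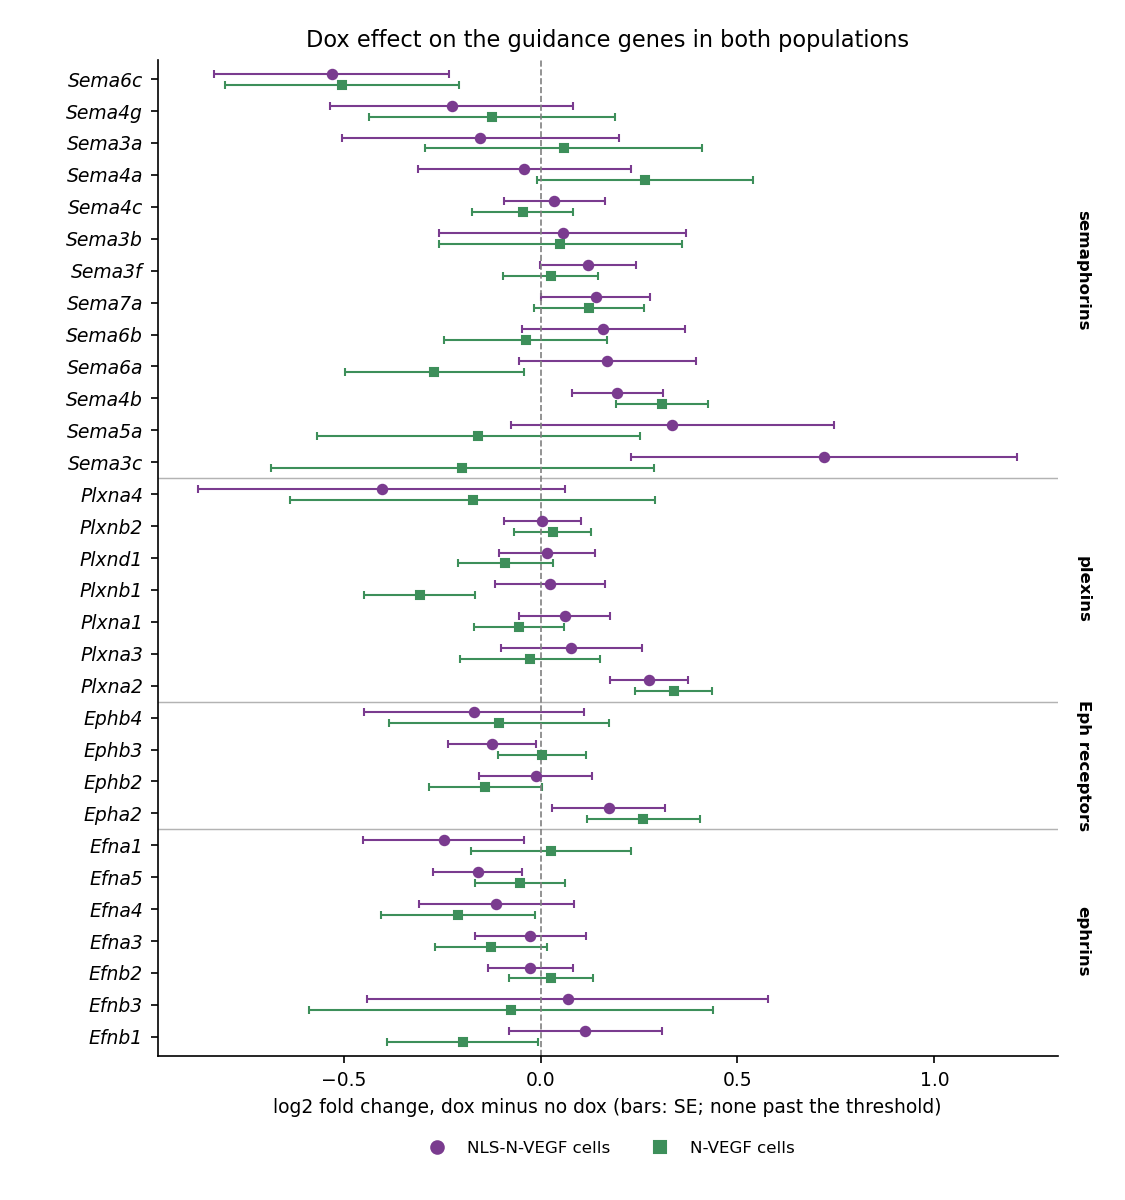
Log2 fold change of dox against no dox for each of the 31 guidance genes in NLS-N-VEGF cells (purple circles) and N-VEGF cells (green squares), by edgeR without a block, n = 3 libraries per group; bars are standard errors. No gene passed an adjusted p of 0.05, and Plxna2 lies at 0.28 and 0.34.

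The family medians of the dox effect lay close to 0. In NLS-N-VEGF cells they were 0.12 for semaphorins, 0.0238 for plexins, -0.07 for Eph receptors and -0.03 for ephrins. In N-VEGF cells they were -0.04, -0.05, -0.05 and -0.07 in the same order. The estimates furthest from 0 belonged to low genes with large errors, namely Sema3c with 0.72 (SE 0.490) and Sema6c with -0.53 (SE 0.299) in NLS-N-VEGF cells. The test of the difference between the 2 dox effects called 0 members at an adjusted p under 0.05 and found 0 at an unadjusted p under 0.05, where 0.852% of genes had such a p, and DESeq2 called 0 members. With the block 0 were called and 1 (Sema5a) had an unadjusted p under 0.05 (3.41% of genes).

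Taken as the mean of both populations, the dox effect again called 0 members (0.0588% of genes called), and 3 members, Plxna2, Sema4b and Sema6c, had an unadjusted p under 0.05 (3.11% of genes had). With the block 5 had such a p (9.30% of genes), Epha2 and Plxna4 being added. DESeq2 called 0 members. Plxna2 (chr1:194618218-194816869), a receptor of class 6 and class 3 semaphorins, was the member with the smallest p. Its normalised CPM were 29.2 and 27.2 (NLS-N-VEGF no dox), 32.7 and 34.2 (NLS-N-VEGF dox), 30.0 and 25.0 (N-VEGF no dox) and 35.1 and 36.1 (N-VEGF dox) in the suffix a libraries. In the suffix b libraries they were 26.2, 33.2, 25.6 and 30.6. All 3 libraries of each dox group lay above all 3 of the no dox group of the same population.

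The mean log2 fold change of Plxna2 was 0.31 (SE 0.0698, adjusted p = 0.626, edgeR), and it was higher with dox in 6 of 6 pairs. Over the other settings without the block it was 0.28 to 0.35, with an adjusted p of 0.0865 or more. With the label number and suffix as a block the change was 0.31 (SE 0.0608) and passed the threshold (edgeR adjusted p = 0.0252), and Plxna2 was the 1 member among the 0.566% of genes called. Without 1 of the 12 libraries in turn, the blocked test called Plxna2 in 5 of 12 fits, with an adjusted p of 0.00406 to 0.155. The call was lost without libraries 1a, 2a or 2b of NLS-N-VEGF no dox, 2a of NLS-N-VEGF dox, 2a of N-VEGF no dox, or 1a or 2a of N-VEGF dox.

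Other members kept one direction over the 6 pairs without passing the threshold in the fits to all 12 libraries. Epha2 and Sema4b were higher with dox in 6 of 6 pairs, and Efna4, Efna5, Plxna4 and Sema6c were lower in 6 of 6. With Plxna2 this made 3 members higher and 4 lower in every pair. Over all genes tested, 2.73% were higher and 2.96% lower in every pair. These 6 pairs are described by direction alone, with no test. For Epha2 the blocked mean log2 fold change was 0.21 (edgeR adjusted p = 0.119), and for Sema4b it was 0.26 (edgeR adjusted p = 0.0772).

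Because the suffix set so much of the spread, the dox effects were also tested in the 8 libraries of suffix a alone, 2 per group. There 2 members were called in NLS-N-VEGF cells, where 0.814% of 13387 genes were called. Sema5a (chr15:32244810-32696341), a transmembrane semaphorin with thrombospondin repeats, was higher with dox, by 0.43 on the log2 scale (SE 0.0696, edgeR adjusted p = 0.0207). Its normalised CPM under this suffix were 116 and 109 (NLS-N-VEGF no dox), 150.2 and 156 (NLS-N-VEGF dox), 123 and 129 (N-VEGF no dox) and 117 and 119 (N-VEGF dox). The 2 NLS-N-VEGF dox libraries were thus the highest of the 8, and in N-VEGF cells the dox values lay below those without dox. The suffix b libraries did not show this order, with 64.1, 59.7, 66.7 and 48.5 in the same order of groups, and dox lower than no dox in both populations.

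Plxna4 (chr6:32144268-32588192), a plexin that pairs with neuropilin 1 for Sema3a, fell by 0.47 on the log2 scale with dox in the NLS-N-VEGF cells of suffix a (SE 0.0749, edgeR adjusted p = 0.0192). Its normalised CPM were 97.4 and 89.6 (NLS-N-VEGF no dox), 65.8 and 69.9 (NLS-N-VEGF dox), 106 and 107 (N-VEGF no dox) and 100.05 and 94.6 (N-VEGF dox). It was also called in the mean dox effect under this suffix, at -0.31 (edgeR adjusted p = 0.0240, 1.01% of genes called). Between the populations with dox (NLS-N-VEGF minus N-VEGF) it was called at -0.52 (edgeR adjusted p = 0.0431, 0.0822% of genes called). In the suffix b libraries it was at 41.3, 37.4, 42.0 and 31.4, lower with dox in both populations. Over all 12 libraries with the block, its mean dox effect was -0.28 and did not pass the threshold (edgeR adjusted p = 0.166).

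The second question was whether NLS-N-VEGF cells differed from N-VEGF cells. In the fit to all 12 libraries, 0 of 31 members were called with dox, without dox or in the mean of both, where 0% of genes were called in each of these 3 comparisons by edgeR, and DESeq2 called 0 members. At an unadjusted p under 0.05 there were 2 members with dox, Sema7a and Plxnb1 (1.18% of genes), 0 members without dox (0.603% of genes) and 2 in the mean of both, Sema7a and Efnb2 (1.22% of genes). Sema7a was 1.24-fold higher in NLS-N-VEGF cells in that mean (log2 fold change 0.31, SE 0.0982, edgeR adjusted p = 0.999). Efnb2 was 1.12-fold higher (log2 fold change 0.17, SE 0.0758, edgeR adjusted p = 0.999). With the block 0 members were called (0.0147% of genes with dox and 0% in the other 2 comparisons), and the adjusted p of Sema7a was 0.382 (edgeR). At an unadjusted p under 0.05 the block gave 6 members with dox (4.56% of genes), 2 without dox (3.67%) and 4 in the mean of both (5.43%). The members' median log2 difference in that mean was 0.0209, against -0.001 over all genes tested.

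Most calls among these genes went with the label suffix. With group in the model, 19 of 31 members were called between suffixes b and a, 16 of them lower in suffix b and 3 higher. Over all genes tested 45.6% were called, nearly evenly split into 23.5% lower and 22.2% higher. The members' median log2 fold change was -0.22, against 0.0054 over all genes tested, and their median absolute change was 0.299 against 0.215. Called changes of at least 1.5-fold were found for 7 members, 6 of them lower, where 13.2% of genes had such a change. Sema3c reached 1 CPM only through the suffix where it was higher, and without it 18 of 30 members were called, 15 of them lower, and 6 by at least 1.5-fold, 5 of them lower. In 10 members all 4 libraries of suffix b lay below all 8 of suffix a, as in 14.9% of genes, and in 0 members they all lay above, as in 13.1% of genes. All 19 called members kept their direction in each of the 4 groups. The calls rest on these same differences within the groups, so the shared direction is no separate support.

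**Figure D3:**
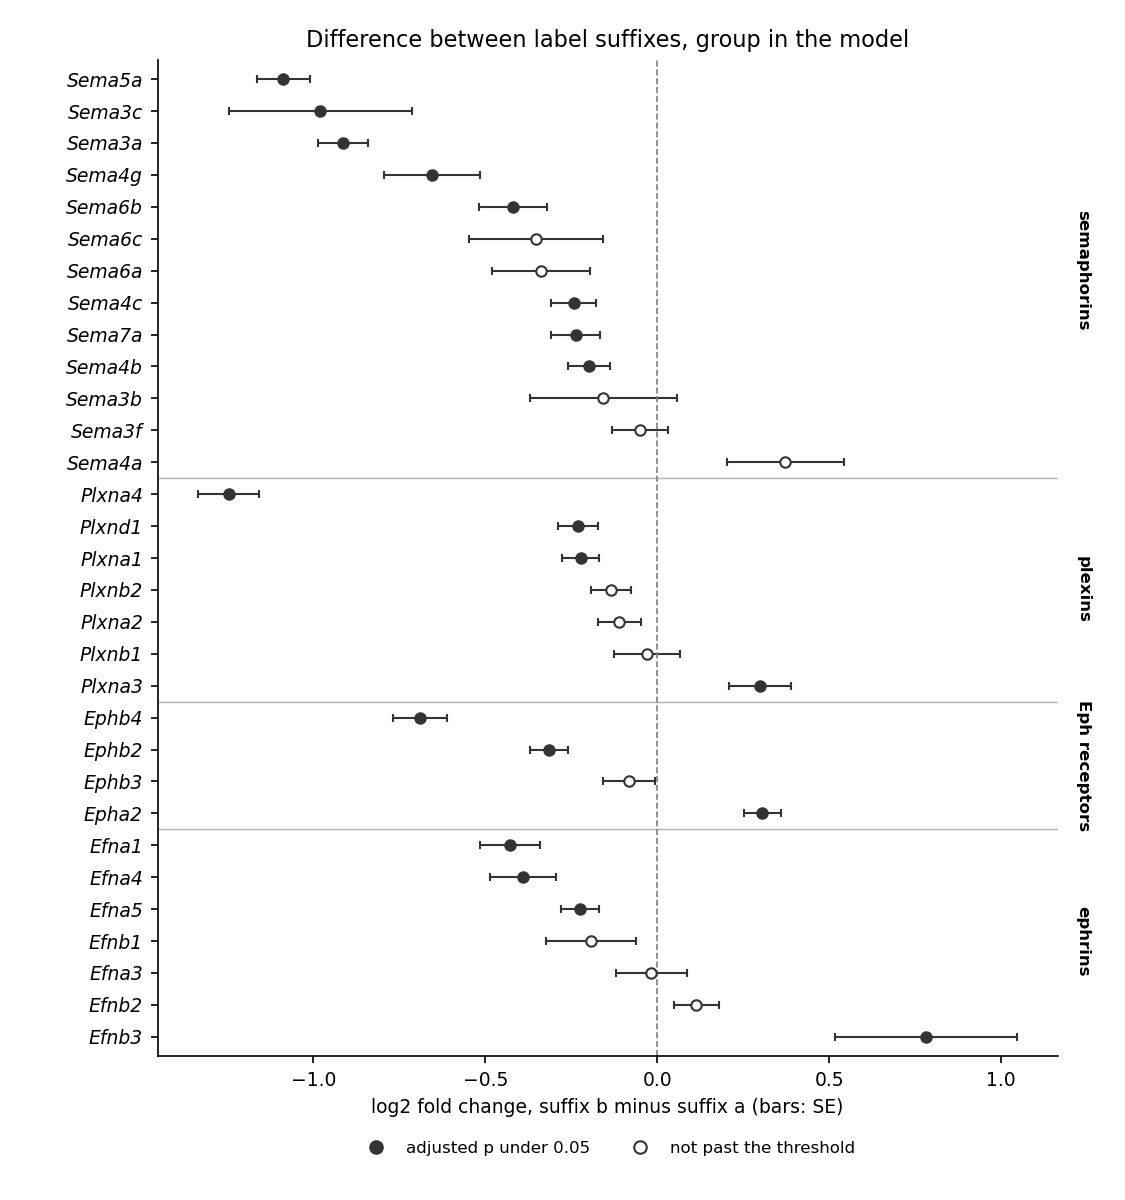
Log2 fold change of suffix b (4 libraries) against suffix a (8 libraries) for the 31 guidance genes by family, from edgeR with group in the model; bars are standard errors, filled points passed an adjusted p of 0.05 and open points did not. Plxna4 and Sema5a lie furthest left, at -1.25 and -1.09, and of the filled points only Plxna3, Epha2 and Efnb3 lie right of 0.

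Of the secreted class 3 semaphorins, Sema3a was among the members with the lowest ratios. Sema3a (chr5:13125414-13602565), the classic collapsing factor for growth cones, was at 37.3, 42.3, 44.1 and 40.4 normalised CPM in the suffix b libraries. In the suffix a libraries it was at 89.4 and 81.9 (NLS-N-VEGF no dox), 72.2 and 73.5 (NLS-N-VEGF dox), 67.8 and 78.7 (N-VEGF no dox) and 75.6 and 82.1 (N-VEGF dox). The groups of suffixes did not overlap, and it was 1.88-fold lower in suffix b (log2 fold change -0.91, SE 0.0735, edgeR adjusted p = 2.28e-07). Sema3c (chr5:17574281-17730268) was at 0.643, 1.07, 0.350 and 0.603 in the suffix b libraries and at 1.09 and 0.754 (NLS-N-VEGF no dox), 1.61 and 1.47 (NLS-N-VEGF dox), 1.38 and 1.73 (N-VEGF no dox) and 1.06 and 1.30 (N-VEGF dox) in the suffix a libraries. At these low levels the suffixes overlapped. Sema3c averaged 0.665 in suffix b and 1.30 in suffix a, so it belonged to the members only through suffix a, and its difference is given as a description (log2 fold change -0.98, and -0.66 without N-VEGF no dox 2b, the library at its lowest value). Sema3b and Sema3f, neighbours on chromosome 9, had log2 fold changes of -0.16 and -0.05 and were not called.

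Among the membrane-bound semaphorins, Sema5a, whose values are given above, was 2.12-fold lower in suffix b (log2 fold change -1.09, SE 0.0775, edgeR adjusted p = 6.13e-08), and its suffixes did not overlap. Sema4g (chr19:44989101-45003397), a class 4 member, was at 4.78, 5.21, 3.67 and 3.35 in the suffix b libraries and at 7.59 and 7.73 (NLS-N-VEGF no dox), 5.999 and 6.04 (NLS-N-VEGF dox), 5.53 and 8.19 (N-VEGF no dox) and 6.81 and 5.75 (N-VEGF dox) in the suffix a libraries, again without overlap. It was 1.57-fold lower in suffix b (log2 fold change -0.66, SE 0.140, edgeR adjusted p = 0.00129). Sema6b, Sema4c, Sema7a and Sema4b were also called lower, with log2 fold changes of -0.42, -0.24, -0.24 and -0.20. Sema7a was not called with the label number as a further term (-0.20, edgeR adjusted p = 0.0675) or without N-VEGF dox 2b (-0.13, edgeR adjusted p = 0.0987), and Sema4b was not called without NLS-N-VEGF no dox 2b (-0.14, edgeR adjusted p = 0.0943). Sema6c, Sema6a and Sema4a, at -0.35, -0.34 and 0.37, were not called. In all, 8 of 13 semaphorins were called lower and 0 higher (7 of 12 without Sema3c), with a family median of -0.34. Over all genes tested 23.5% were called lower and 22.2% higher. The summed normalised CPM per kb of the 13 semaphorins was 41.8 to 54.2 in the suffix b libraries (median 46.2) and 54.8 to 66.2 in the suffix a libraries (median 59.8).

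Of the 7 plexins, 3 were called lower and 1 higher (57.1% called, against 45.6% of all genes), with a median of -0.13. Plxna4, the plexin with the largest change of all members, was 2.37-fold lower in suffix b (log2 fold change -1.25, SE 0.0882, edgeR adjusted p = 5.65e-08). The 4 libraries of suffix b were at 31.4 to 42.0 normalised CPM, below the lowest of suffix a at 65.8. The other A plexins did not move as far. Plxna1 was called at -0.22 and Plxna3 at 0.30, while Plxna2 had an estimate of -0.11 and was not called. Plxna3 lost its call with the label number as a further term (0.26, edgeR adjusted p = 0.0593), without NLS-N-VEGF dox 2b (edgeR adjusted p = 0.0734) and without N-VEGF no dox 2b (edgeR adjusted p = 0.0589). Plxnd1, the receptor of Sema3e, was called at -0.23. Plxnb2 and Plxnb1, at -0.13 and -0.03, were not called. The summed normalised CPM per kb of the plexins had a median of 66.2 in suffix b and 75.7 in suffix a, and the ranges overlapped.

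Of the 4 Eph receptors, Ephb4 and Ephb2 were called lower and Epha2 higher, and Ephb3 (-0.08) was not called, where 45.6% of all genes were called. The change of Ephb4 was 1.61-fold (log2 fold change -0.69, SE 0.0784, edgeR adjusted p = 4.98e-06). That of Ephb2 was smaller (log2 fold change -0.31, SE 0.0559, edgeR adjusted p = 0.000286), but its suffixes did not overlap either. Epha2 was 1.24-fold higher in suffix b (log2 fold change 0.31, SE 0.0543, edgeR adjusted p = 0.00028), and its 4 values there of 122 to 159 overlapped those of suffix a, which were 98.1, 113 and 124 at their lowest, median and highest. The summed level per kb of the 4 receptors was close under both suffixes, with medians of 44.7 in suffix b and 45.4 in suffix a.

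Of the 7 ephrins, the A-class members Efna1, Efna4 and Efna5 were called lower and the B-class member Efnb3 higher (57.1% called, against 45.6% of all genes). Efna1 changed by -0.43, Efna4 by -0.39 and Efna5 by -0.22 on the log2 scale, and each overlapped between the suffixes. Efnb3 (chr11:69554092-69560205), a ligand of B-class Eph receptors, was at 1.71, 1.78, 2.27 and 1.88 normalised CPM in the suffix b libraries and at 1.32 and 1.26 (NLS-N-VEGF no dox), 0.911 and 1.84 (NLS-N-VEGF dox), 0.377 and 1.36 (N-VEGF no dox) and 0.9998 and 0.976 (N-VEGF dox) in the suffix a libraries. It was 1.72-fold higher in suffix b (log2 fold change 0.78, SE 0.264, edgeR adjusted p = 0.0236) and overlapped between the suffixes. It was not called with the label number as a further term (0.52, edgeR adjusted p = 0.162) or in the libraries numbered 2 alone (0.50, edgeR adjusted p = 0.0879). Without NLS-N-VEGF dox 1a, N-VEGF no dox 2b or N-VEGF dox 2b its edgeR adjusted p was 0.0509, 0.138 and 0.0844. Efna3, Efnb1 and Efnb2 had estimates of -0.02, -0.19 and 0.11 and were not called. The summed normalised CPM per kb of the ephrins was 40.2 to 43.6 in suffix b and 45.0 to 51.1 in suffix a.

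**Figure D4:**
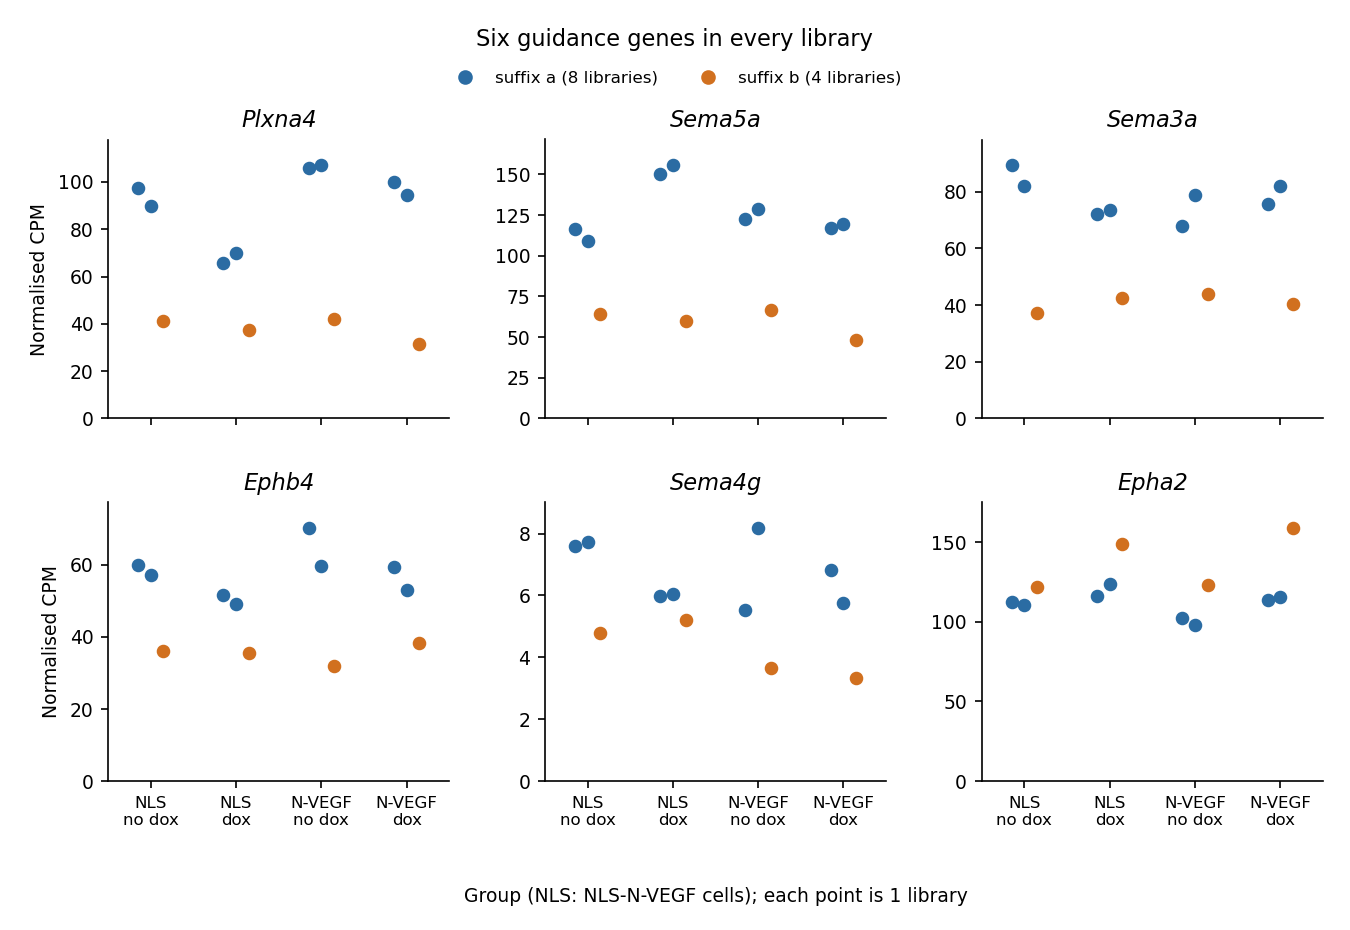
Normalised CPM (linear axes from 0) of Plxna4, Sema5a, Sema3a, Ephb4, Sema4g and Epha2 in every library, by group; blue points are the 2 libraries of suffix a and orange points the library of suffix b. The orange point lies below both blue points in all 4 groups for the first 5 genes and above both for Epha2.

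Libraries that differ in suffix stood further apart than those that share it. Within the 4 groups, the median absolute log2 ratio of the 31 members was 0.0657 to 0.127 between libraries 1 and 2 of suffix a, and 0.208 to 0.351 between the libraries numbered 2 of the 2 suffixes. Other measures moved with the suffix. The summed level of 5 leukocyte markers was 5.09 to 5.78 CPM in suffix b and 2.40 to 3.68 CPM in suffix a, almost all of it from Cd68, while Cd3e was at 0 and Ptprc at a mean of 0.0794 CPM. The summed level of 4 epithelial markers was 3.102 to 3.55 CPM in suffix b and 1.62 to 3.108 CPM in suffix a, so the ranges just overlapped. Krt5 was at 0 and Epcam at a mean of 0.00499 CPM. The sums of the fibroblast, endothelial and neuronal markers and the total counts also overlapped between the suffixes. The fibroblast sum is weighted to its highest genes, such as Vim at 3644 to 5292 CPM over the 12 libraries. Some of its other genes spread more widely, with Pdgfra at 92.95 to 431 CPM and Col3a1 at 158 to 651.5 CPM. The part of these measures in the differences between the suffixes was not tested. In bulk RNA, fewer cells that express a gene and less RNA of it per cell cannot be told apart.

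Of the 20 genes of the 4 families under 1 CPM, 10 were Eph receptors, 7 semaphorins, 2 plexins and 1 an ephrin. Their means ran from 0.00507 to 0.697 CPM, 14 of them lay under 0.158 CPM, and each of the 20 had at least 1 count in some library. Epha1, Epha10 and Epha4 passed the filter on low counts. Epha4 was chosen for mention after its values were seen. Epha4, a receptor for both classes of ephrins, had 12, 22, 27 and 29 counts in the suffix b libraries and 2 to 11 in the suffix a libraries, without overlap. Its normalised CPM was 0.857 to 1.94 in suffix b and 0.123 to 0.589 in suffix a. Only suffix b libraries reached the 0.615 CPM to which 10 counts came at the median depth, so Epha4 passed the filter through the suffix where it was higher, and its difference is given with no test.

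The co-receptors and effectors of these families were taken as a list of 65 genes, of which 57 could be tested. The neuropilins were both well expressed. Nrp1, which binds Sema3a and VEGF, was at 66.7 and 65.4 (NLS-N-VEGF no dox), 73.3 and 79.1 (NLS-N-VEGF dox), 61.5 and 60.1 (N-VEGF no dox) and 81.9 and 77.2 (N-VEGF dox) normalised CPM in the suffix a libraries. In the suffix b libraries it was at 54.7, 75.6, 58.7 and 59.8. Its mean dox effect was 0.28 (SE 0.0820, edgeR adjusted p = 0.99995 without the block). It was higher with dox in 6 of 6 pairs, though by little in the N-VEGF pair of suffix b (58.7 and 59.8). With the block Nrp1 passed the threshold narrowly (0.28, SE 0.0609, edgeR adjusted p = 0.0453, 0.566% of genes called). Between the suffixes it was lower in suffix b (-0.18, edgeR adjusted p = 0.0267), a call that the fit with the label number as a further term did not make (edgeR adjusted p = 0.0744). Nrp2, the neuropilin of Sema3f, was at 134 to 162 normalised CPM in the 12 libraries, and its mean dox effect of 0.13 (SE 0.0519) was not called.

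Src, a tyrosine kinase that acts downstream of Eph receptors, was the 1 gene of the list called in the mean dox effect without the block. It was at 48.1 and 45.2 (NLS-N-VEGF no dox), 72.3 and 67.1 (NLS-N-VEGF dox), 61.5 and 49.97 (N-VEGF no dox) and 72.6 and 71.7 (N-VEGF dox) normalised CPM in the suffix a libraries and at 47.7, 68.6, 44.4 and 75.6 in the suffix b libraries. All 6 dox libraries lay above all 6 without dox (log2 fold change 0.53, SE 0.0751, edgeR adjusted p = 0.0224). With the block it was also called in each population, at 0.56 in NLS-N-VEGF cells (edgeR adjusted p = 0.00869, 0.125% of genes called) and at 0.50 in N-VEGF cells (edgeR adjusted p = 0.0241, 0.110% of genes called), where the fit without it gave adjusted p values of 0.525 and 0.894. Between the suffixes 28 of the 57 (49.1%) were called, near the 45.6% of all genes, with 9 higher and 19 lower in suffix b and a median of -0.09. The largest called changes were those of Ngef (0.81), which acts downstream of Eph receptors, Rap1b (-0.70), a small GTPase that plexins inactivate, and Mical1 (0.68), an oxidase of actin recruited by plexins. Their edgeR adjusted p values were 1.64e-06, 7.71e-07 and 0.00323.

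The other large guidance families, netrins and slits with their receptors and effectors, were taken as a list of 28 genes. Of these 27 were in the table and 14 could be tested. Dox and population called 0 of the 14 in each contrast with edgeR and 0 of the 24 tested with DESeq2. At an unadjusted p under 0.05 there were 3 for dox in NLS-N-VEGF cells (2.34% of genes), 2 in the mean dox effect (3.11% of genes) and 0 in the other contrasts. The suffix called 7 of 14 (50%), all lower in suffix b, where 45.6% of all genes were called and 23.5% were called lower. Unc5b, a netrin receptor, was at 51.6, 50.3, 40.0 and 44.9 normalised CPM in the suffix b libraries and between 79.6 and 92.7 in the suffix a libraries (log2 fold change -0.89, edgeR adjusted p = 7.88e-08). Unc5a and Ntn1 were also among the 7, at low levels. Unc5a was at 0.0592 to 0.466 normalised CPM in suffix b and 0.442 to 1.57 in suffix a, and Ntn1 at 0.134 to 0.857 and 0.633 to 1.19. They reached the CPM of 10 counts in 0 and 1 of the 4 suffix b libraries, so they were tested because of suffix a, and their differences are given with no test. Among the 11 genes that reached it in more than 1 library of each suffix, 5 were called, all lower.

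The promoters were read for 25 of the 31 members that matched a start site in RefSeq (GRCm38.p6), as the 250 bases before the start. The RefSeq start is not always the start of the gene coordinates used here. Windows of several members, among them Plxna2, Sema3a, Sema3c, Efna1, Efna3 and Plxnb2, lie inside the coordinates of their gene. For 27 of the 35 windows of members, the bases after the start were found in an annotated transcript of the gene. Where a gene had several windows, the first one listed was counted. VEGF and hypoxia programmes share the hypoxia-inducible factor (HIF), whose core element is ACGTG or GCGTG, so these letters were searched on both strands. They occurred in 15 of 25 members (60.0%), against 56.9% of the 9870 promoters of tested genes and 38.6% of all 27025 promoters. The share in the members was thus close to that of tested genes. ACGTG occurred in 4 members and GCGTG in 14, some with both. With every window of a gene counted, either core occurred in 16 of 25 members (64.0%), Sema6b being added, against 61.2% of the tested genes. The windows printed here belong to Sema5a and Ephb4, which were lower in suffix b, to Epha2, which was higher, and to Plxna2, which was called with dox under the block. They are written 5′ to 3′ along the gene, and capitals mark a match of either core on either strand.
Sema5a promoter, chr15:32244563-32244812, + strand: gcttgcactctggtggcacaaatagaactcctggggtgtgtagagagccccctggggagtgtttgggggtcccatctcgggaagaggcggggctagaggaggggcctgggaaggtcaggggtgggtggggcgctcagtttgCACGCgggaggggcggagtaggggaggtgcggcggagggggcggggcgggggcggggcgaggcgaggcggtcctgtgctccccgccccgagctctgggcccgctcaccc
Ephb4 promoter, chr5:137349859-137350108, + strand: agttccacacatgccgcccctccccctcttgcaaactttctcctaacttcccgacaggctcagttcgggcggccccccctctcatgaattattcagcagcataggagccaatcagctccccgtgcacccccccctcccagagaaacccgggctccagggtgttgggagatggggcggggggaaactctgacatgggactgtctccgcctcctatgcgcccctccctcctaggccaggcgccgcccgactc
Epha2 promoter, chr4:141300971-141301220, + strand: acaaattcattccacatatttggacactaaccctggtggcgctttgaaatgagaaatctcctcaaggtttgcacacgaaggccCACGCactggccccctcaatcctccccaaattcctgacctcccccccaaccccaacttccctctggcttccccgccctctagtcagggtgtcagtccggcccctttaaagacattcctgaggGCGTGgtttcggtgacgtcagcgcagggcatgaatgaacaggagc
Plxna2 promoter, chr1:194619579-194619828, + strand: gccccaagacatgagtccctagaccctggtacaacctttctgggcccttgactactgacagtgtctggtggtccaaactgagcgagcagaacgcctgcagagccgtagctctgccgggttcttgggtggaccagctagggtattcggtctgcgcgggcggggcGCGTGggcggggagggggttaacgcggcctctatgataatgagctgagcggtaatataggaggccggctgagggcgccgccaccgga
Sema5a and Plxna2 had 1 match each, Epha2 had 2 and Ephb4 had 0. These windows were chosen by the results of their genes, and a link between the core and the changes was not tested. A match is a run of letters only, and binding was not measured.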

How the data were processed

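The 12 libraries were made with TruSeq RNA kits and sequenced. Per the submitters' processing notes and the methods, the authors checked reads with FastQC 0.11.5, trimmed them with Trim Galore and cutadapt 1.10, aligned them with TopHat2 2.1.0 and Bowtie2 2.2.6 to GRCm38, counted reads per gene with HTSeq 0.6.1 and tested them with DESeq2 1.18.1. The deposited table holds whole-number raw counts, not normalized. The strand setting of the counting was not given in the sources used here.

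Groups came from the labels. Coordinates are 1-based (GRCm38), and all 51 genes of the 4 families had the same coordinates in GENCODE M21, which gave the exon lengths. Genes were filtered with filterByExpr, which kept 13608 genes and all 31 members, scaled by TMM and tested with the two-sided quasi-likelihood test of edgeR 4.0.16 in R 4.3.3, with 1 mean per group over all 12 libraries. The suffix was tested with group in the model. Genes with an adjusted p under 0.05 (Benjamini-Hochberg, over all genes tested) were called. Scripts were tested on simulated data.

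Number and suffix of the labels were used to pair libraries across groups. Deviations from group means correlated in all 18 pairs of the same label (0.319 to 0.790 over 12058 genes). The 36 other pairs ran from -0.698 to 0.602 and averaged -0.234, a mean pushed down because the deviations of a group cancel out. The biological coefficient of variation in edgeR was 15.5% without the block, 7.93% with group and suffix and 7.86% with the block. Most of what the block removed thus went with the suffix, and these values do not establish a pairing by number. A fit with this block is given where it changed a call. No 2 libraries of a group matched within sampling noise (chi-square per degree of freedom at least 1.68 over 12 pairs).

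The members and lists were chosen with earlier results of these data known. Values in every library are given for members called by dox or population with or without the block, for the highest 2 of each family per exon length and for those called between suffixes at 1.5-fold or more. Of the lists, genes called by dox or population, the 3 largest called suffix changes and both neuropilins are named. Alternatives were RLE scaling, the Wald test of DESeq2 1.42.0, no filter, at least 10 counts in every library, each library left out, the block, suffix a alone and, for the suffix, libraries numbered 2 alone. The blocked fit without each library was added after seeing the data.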

Additional observations from a re-analysis of the deposited data

How the results depend on the processing

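The 0 members called for dox and for population stayed at 0 under RLE scaling, DESeq2, both other filters and without each library in turn. In the libraries of suffix a alone, 2 members were called for dox in NLS-N-VEGF cells, 1 in the mean dox effect and 1 between populations with dox. The replicate block gave 1 member in the mean dox effect (Plxna2), where the fit with no replicate block gave 0, and in the block fit without each library in turn the count was 0 to 2. It changed no other count of called members by over 1.5 times. Between the suffixes, 340 of 340 alternative values of the 19 called members kept their direction and 328 stayed past the threshold, 14 members in every setting. The number called was 16 to 21 without each library in turn. It was 20 with no filter, 17 with at least 10 counts in every library, 16 with the label number as a further term and 18 in the libraries numbered 2 alone. Efnb3 lost its call in 5 settings, Plxna3 in 3, Sema7a in 2, and Sema3c and Sema4b in 1 each. The cause was not tested. Depth limits Sema3c, Efnb3 and the 20 genes under 1 CPM, and 3 libraries per group limit the dox and population tests. The properties that the suffix may stand for cannot be told apart.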
